A study of Moricandia arvensis and Moricandia suffruticosa and Moricandia moricandioides with 78 samples.

Results

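The leaf transcriptome of Moricandia arvensis (Mav, a C2 species of the Brassicaceae) was followed through the recovery from severe drought. The 9 libraries compared were chosen by their labels alone, 4 from droughted plants after rewatering (RW stress) and 5 from droughted plants at T2 (T2 stress), out of 78 libraries of 3 Moricandia species. At T2 the plants had been left without water until stomatal conductance was at about 10% of its starting value. RW plants were then given water back to the starting pot weight, and their leaves were taken 1 day later. The 5 RW control and 5 T2 control libraries, from plants whose lost water was replaced each day, served to say which changes belonged to drought. All 4 groups shared the same pots, growth room and fertiliser, no line carried a transgene, and every library stands for mature leaves of 1 plant number in the labels. Whole leaves were sequenced, so fewer cells of a type and less RNA per cell cannot be told apart.

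Reads were counted on Arabidopsis coding sequences, so each gene is given by its Arabidopsis identifier, and names and roles are those known from Arabidopsis. Of 33602 features, 19819 passed the filter on low counts in the comparison of RW stress with T2 stress. Total counts per library ranged from 22346621 to 35912132 in RW stress, from 22614972 to 30395011 in T2 stress, from 25641791 to 35390807 in RW control and from 29012042 to 37783763 in T2 control. Library values are CPM, counts scaled by TMM to a total of 1000000, in the order A30s, A38s, A40s and A42s for RW stress and A28s, A35s, A37s, A39s and A44s for T2 stress. The median squared difference in counts between A30s, A38s and A42s was only 1.92 to 3.53 times that expected from counting alone, and that between A28s and A44s 3.34 times, against 18.5 to 90.4 times for the other pairs within a group. Each comparison was therefore also made with these near-identical libraries summed, which leaves 2 RW stress and 4 T2 stress profiles. Of 4 chloroplast genes of the mesophyll, each at 1904 CPM or more in RW stress, 3 rose on rewatering, while none of the 3 phloem and 4 guard cell markers was called. Of 3 seed and 3 root markers 1 each had enough counts to be tested. The seed marker was not called, and the root marker, an aquaporin, rose in drought (3.59 on the log2 scale) and fell on rewatering (-3.46), and its part in other results was not tested.

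Loss of water raises abscisic acid (ABA), which is bound by soluble receptors that hold back type 2C protein phosphatases (PP2Cs) and so free SnRK2 kinases to switch on ABF transcription factors. Their targets include dehydrins and other late embryogenesis abundant proteins, while proline, myo-inositol and raffinose accumulate as protective solutes, photosynthesis genes are turned down and older leaves begin to lose chlorophyll. When water returns, ABA is broken down, proline is oxidised in mitochondria, and growth can resume. In C2 plants such as Mav, the CO2 released from glycine in photorespiration is recaptured in the leaf.

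RW stress differed from T2 stress in 6628 of the 19819 genes, 33.4% of those tested. A call needed an adjusted p under 0.05 and a log2 fold change beyond 1 in either direction (edgeR quasi-likelihood test). Of the 6628 genes, 3524 were higher (17.8%) and 3104 lower (15.7%) in RW stress than in T2 stress. With near-identical libraries summed, 4133 genes were called (19.9% of 20748), and 4042 of them were also called with the libraries as deposited. On the first principal component, which held 59.6% of the variance, RW stress libraries lay between -35.2 and -30.2 and T2 stress libraries between 69.6 and 85.2. RW control libraries lay between -45.3 and -32.3 and T2 control libraries between -25.1 and -0.839, so that the rewatered plants overlapped RW control on this axis and stood far from the droughted plants. Without the libraries of lane 7, which were 1 in each of the 2 groups, 5794 genes were called.

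**Figure D1:**
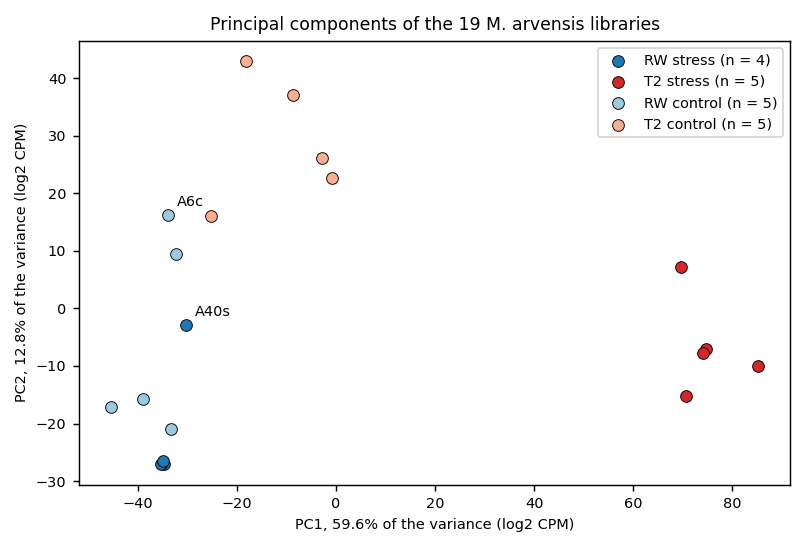
Principal components of log2 CPM over the 500 most variable genes, with 1 point per library for RW stress, T2 stress, RW control and T2 control. T2 stress libraries stand alone on the right (69.6 to 85.2 on PC1), A30s, A38s and A42s fall almost on one point, and A40s lies between the RW controls on PC2 (-2.92).

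Drought had called 5525 of 19613 genes (28.2%) in T2 stress against T2 control, 2273 higher (11.6%) and 3252 lower (16.6%). After rewatering, 4019 of them (72.7%) were undone, meaning called in the opposite direction in RW stress against T2 stress and not called against RW control. This held for 1746 of the genes raised by drought (76.8%) and for 2273 of those lowered by it (69.9%). A further 1482 genes (26.8%) had no call in the opposite direction on rewatering and none against RW control. In both classes, genes with too few counts to be tested against RW control were taken as not called there. Of the genes raised by drought 2059 of 2273 were tested against RW control, and of those lowered 3215 of 3252. Drought and recovery share the T2 stress libraries, so the 2 sets of calls are not independent. With near-identical libraries summed, 2834 of 5385 drought genes (27% of those tested) were undone, a share of 52.6%. Lanes were uneven in the drought comparison. T2 control held A9c and A15c from lane 1 and A16c and A22c from lane 7, while in T2 stress A37s was from lane 7 and the rest from lane 2. Without lane 7 drought called 5069 genes and 3539 were undone, and leaving out lane 1 was not tested. The same T2 controls enter the change in the controls and the interaction below.

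The distance left to the controls uses none of the T2 libraries. RW stress differed from RW control in 52 of 19623 genes (0.265%), 34 higher (0.173%) and 18 lower (0.0917%), and 3602 genes had an unadjusted p under 0.05. Genes raised by drought, whose median log2 fold change at T2 was 1.63, had a median of -0.21 against RW control after rewatering. Genes lowered by drought, with a median of -1.91 at T2, had a median of -0.03. Within 1 log2 unit of RW control were 82.2% of the genes raised and 83% of those lowered, beside 88.2% of all genes tested. The count of 52 rested on single libraries. It was 939 without A40s, 542 without the RW control A6c, 4 without A30s, A38s or A42s, 17 without A8c and 23 without A10c. DESeq2 called 896 genes with all libraries. With near-identical libraries summed, 1 gene was called (0.00488%) and 896 had an unadjusted p under 0.05.

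**Figure D2:**
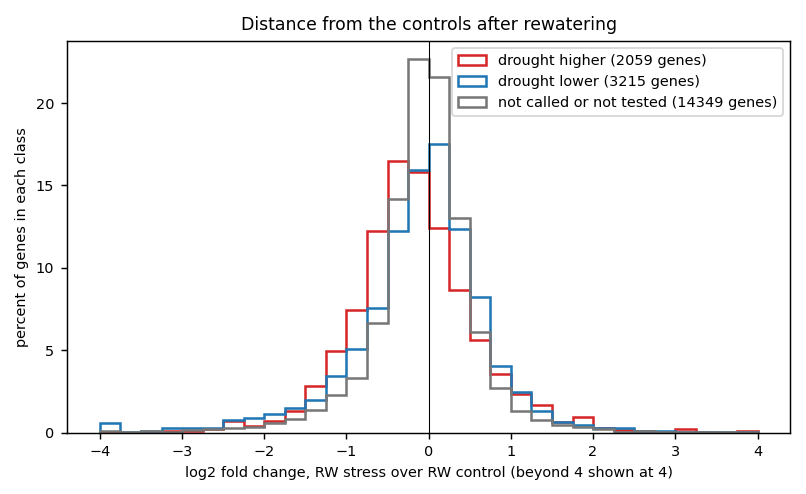
Percent of genes by log2 fold change of RW stress over RW control, for genes higher under drought (2059), lower under drought (3215) and the rest of the 19623 tested. The 3 curves are centred close to 0, with medians of -0.21 for genes raised and -0.03 for genes lowered by drought.

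Over all genes, 1417 of 19510 (7.26%) were called between RW control and T2 control, 4.03% higher and 3.23% lower in RW control. Of the 6628 recovery calls 706 (10.7%) were called in the same direction in the controls and 111 in the opposite one. Beyond the controls, the interaction test called 5601 of 20901 genes (26.8%), 14.1% higher and 12.7% lower, and 3151 (14.5%) with near-identical libraries summed. Of the 6628 recovery calls 4044 (61%) were called in the interaction in the direction of their recovery and 9 in the other. Of the 4019 undone genes 3273 (81.4%) were called in the interaction in the direction of their recovery and none in the other. The interaction uses the same libraries as the calls that define recovery and undone genes. Its direction in these genes was thus largely set in advance, and both shares are descriptions. In the controls, 271 of the undone genes (6.74%) were also called in that direction.

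In the list of ABA receptors, PP2Cs, SnRK2 kinases and ABF factors, 8 of 25 tested members rose and 12 fell on rewatering, and each of the 15 that drought had changed was undone, while 5 others moved without a called drought change. With near-identical libraries summed, drought called 16 and 15 were undone, the exception being AT4G26080, whose recovery was no longer called. Against RW control none of 24 members was called, but 5 were called lower without A40s, which leaves only the near-identical RW stress libraries. AT2G38310 had 21.5, 20.6, 28.4 and 19.1 CPM in RW stress, against 0.536, 0.166, 0.483, 0.424 and 0.981 CPM in T2 stress. It was 12 to 31.4 CPM in RW control and 3.85 to 21.4 CPM in T2 control, so all T2 stress libraries lay below every other library, and the log2 fold change in recovery was 5.43 ± 0.382 (SE, adjusted p = 2.91e-06). The members AT5G05440, AT2G40330 and AT5G53160 rose likewise, by log2 fold changes of 5.75, 5.40 and 3.50.

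Other members of the same list had been high at T2 and fell. AT1G07430 had 0.931, 1.26, 0.819 and 1.35 CPM in RW stress, against 92.9, 105, 133, 96.8 and 97 CPM in T2 stress, a log2 fold change of -6.56 ± 0.231 (SE, adjusted p = 7.98e-08). Its RW control libraries spanned 0.135 to 4.57 CPM and overlapped RW stress. AT5G59220 fell by a similar amount (-6.36), to 0.447 to 1 CPM in RW stress, against 35.4 to 109 CPM in T2 stress. Members of one list thus moved in opposite directions on rewatering.

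Of the genes of ABA synthesis and breakdown, 6 of 12 tested fell and none rose, beside 15.7% and 17.8% over all genes tested. Of the 7 that drought had changed 3 were undone (2 with near-identical libraries summed) and 1 changed further in the same direction. Against RW control 1 of 12 was called higher, and none of 13 with near-identical libraries summed. NCED3 (AT3G14440), which cleaves the carotenoid precursor in the limiting step of ABA synthesis, had 33, 30, 72 and 29.1 CPM in RW stress, against 283, 99.5, 392, 121 and 294 CPM in T2 stress, with every RW library lower. Its log2 fold change of -2.51 (adjusted p = 0.0014) was -2.12 with near-identical libraries summed and then missed the threshold (adjusted p = 0.063). AT3G19270, a member of the same list, fell more (-4.45) and kept its call. The list holds genes of both synthesis and breakdown, so the falls cannot be read as those of synthesis alone.

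The ABA-responsive protection genes, a list of dehydrins and similar proteins, fell in 15 of 19 members and rose in none, with a median log2 fold change of -2.43 beside 0.01 over all genes tested. AT5G66400 had 137, 128, 55.7 and 118 CPM in RW stress, against 3353, 8863, 7077, 6578 and 3640 CPM in T2 stress. T2 control was at 68.4 to 309 CPM, and the level after rewatering overlapped that of RW control (29.5 to 126 CPM). The fall was -5.72 ± 0.447 on the log2 scale (SE, adjusted p = 5.24e-06). AT1G20450 fell less and stayed abundant, with 1338, 1368, 664 and 1478 CPM in RW stress, against 3985, 8192, 6571, 6209 and 4263 CPM in T2 stress. Its RW control values of 248 to 744 CPM overlapped A40s alone, and the difference between RW stress and RW control, 1.26 on the log2 scale, was not called (adjusted p = 0.126).

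Of the 15 protection genes tested against RW control none was called, and their median log2 fold change was 0.94 beside -0.05 over all genes, and 0.30 over 17 genes with near-identical libraries summed. Without A6c, 5 of the 15 were called higher in RW stress, and 3 of 16 without A40s. In A40s the protection genes were lower than in the other 3 RW stress libraries, by a median of 0.93 log2 units. Without A40s the median of the list against RW control was 0.90 over 16 genes, much as with all libraries. AT5G06760 and AT2G35300, by contrast, were close to 0 again, with 0.261, 0.26, 0 and 0.277 CPM and 0.112, 0.0434, 0.347 and 0.0307 CPM in RW stress.

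Genes of proline metabolism held the largest rise among the named genes with the libraries as deposited, which ranked behind AT1G23480 and AT5G62360 with near-identical libraries summed (8.98, 9.31 and 9.28). AT3G30775 had 625, 617, 54.1 and 650.2 CPM in RW stress, against 0.701, 0.166, 1.69, 0.359 and 0.416 CPM in T2 stress, a log2 fold change of 9.53 ± 0.908 (SE, adjusted p = 1.76e-05). Proline dehydrogenase 2 (AT5G38710), which takes the first step of proline oxidation in mitochondria, had 37.2, 29.9, 3.35 and 32.9 CPM in RW stress, against 0.0412, 0.0415, 0.379, 0 and 0.0892 CPM in T2 stress. For both genes A40s was far below the other RW stress libraries and still above every T2 stress library. RW control held 15.2 to 109.8 CPM of AT3G30775 and 0.953 to 5.76 CPM of AT5G38710, and in both genes A30s, A38s and A42s were above every RW control. The differences from RW control, 3.62 and 3.63 on the log2 scale, missed the threshold (adjusted p = 0.0855 and 0.0752). Both genes also rose in the controls, by 3.27 and 2.64, and by 6.26 and 5.17 beyond the controls in the interaction test.

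Other members of the proline list moved the other way. AT2G39800 had 157, 157, 324 and 147 CPM in RW stress, against 3464, 1724, 3283, 1795 and 3724 CPM in T2 stress, and AT3G55610 had 130.4, 127, 74.6 and 127 CPM in RW stress, against 492, 306, 582, 477 and 535 CPM in T2 stress. Their log2 fold changes were -3.81 and -2.03, and both had been raised by drought. Delta-OAT (AT5G46180, ornithine aminotransferase) and the bifunctional enzyme of lysine breakdown (AT4G33150) also fell, with log2 fold changes of -2.54 and -2.52 on the log2 scale, and are outside the lists, named after their values were seen.

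Among other protective solutes, MIPS1 (AT4G39800), which makes the precursor of myo-inositol, gave one of the largest changes in an abundant transcript and was also named after its values were seen. It had 40.7, 39.8, 55.3 and 37.9 CPM in RW stress, against 4214, 1346, 3217, 1770 and 4399 CPM in T2 stress, a log2 fold change of -6.08 ± 0.45 (SE, adjusted p = 3.91e-06). The controls moved the same way, with 20.3 to 89.3 CPM in RW control and 307 to 630.1 CPM in T2 control, and the fall in the droughted plants was the larger, with a difference of -2.83 log2 units (adjusted p = 0.00152 in the interaction test). MIPS2 (AT2G22240) had a log2 fold change of -3.12, but its controls fell as much (-3.13), and the interaction of -0.01 was not called.

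Of the galactinol and raffinose genes 4 of 8 fell and 3 rose, beside 15.7% and 17.8% over all genes tested. Of the 3 that drought had changed 2 were undone. After summing near-identical libraries 2 fell and 1 rose, and the interaction test called 1 of 8 lower as deposited and none summed. GolS1 (AT2G47180), which makes galactinol, had 0.223, 0.347, 0.323 and 0.4 CPM in RW stress, against 4.04, 11.2, 8.14, 9.97 and 5.47 CPM in T2 stress, and a second member of the list, AT1G56600, had 1.75, 1.65, 0.794 and 1.88 CPM in RW stress, against 232, 262, 166, 289.7 and 254 CPM in T2 stress. DIN10 (AT5G20250), of the raffinose synthase family, rose from low T2 levels in droughted plants and controls alike, with 562 to 812 CPM in RW stress, 13.4 to 43.5 CPM in T2 stress, 246 to 2407 CPM in RW control and 15.9 to 145 CPM in T2 control. SIP2 (AT3G57520), of the same family, rose by 1.42 in RW stress although drought had already raised it (3.46), and this rise was lost when near-identical libraries were summed (0.88, adjusted p = 0.318).

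**Figure D3:**
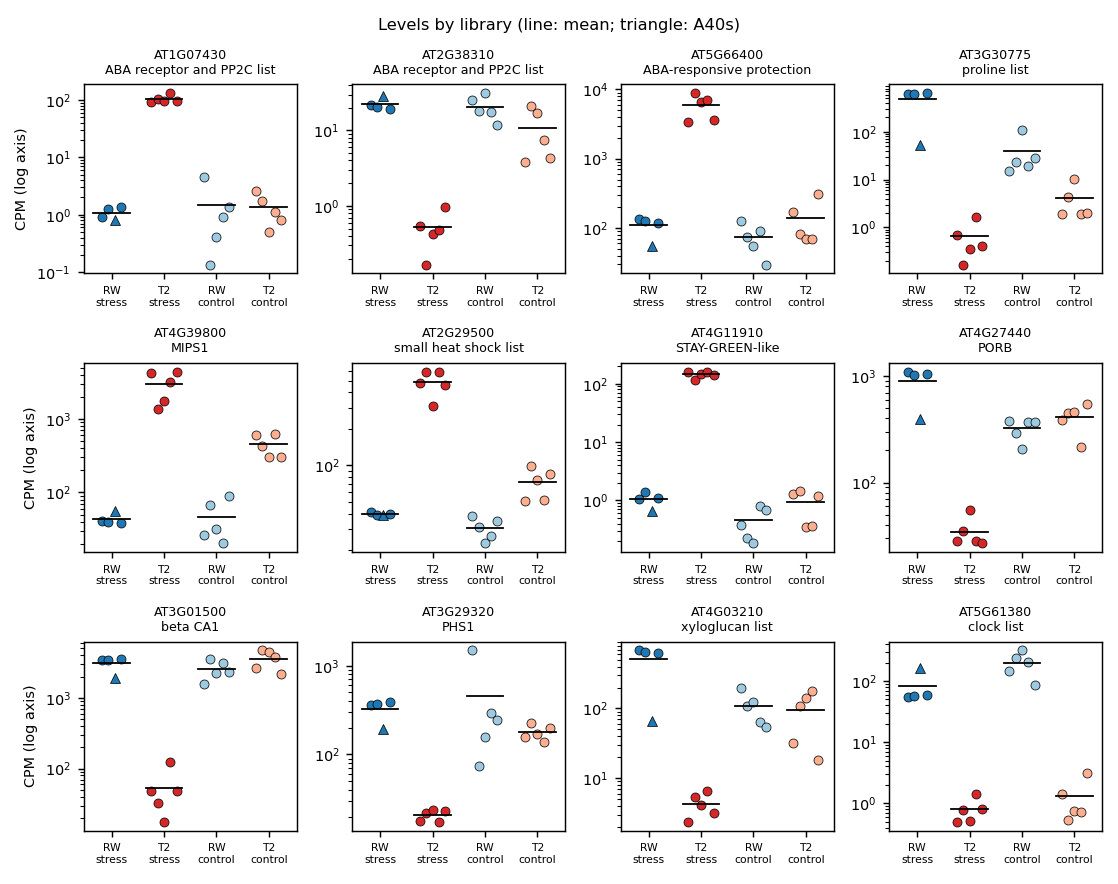
CPM on a log axis for 12 genes in RW stress, T2 stress, RW control and T2 control, with 1 point per library, a line at each mean and a triangle for A40s. In each panel the T2 stress libraries lie apart from the RW stress libraries, and for AT3G30775 and AT4G03210 A40s lies well below the other RW stress libraries (54.1 and 66.2 CPM).

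Genes of small heat shock proteins and HSP101, chaperones that hold unfolding proteins, fell in 12 of 13 tested members, with a median log2 fold change of -3.90, and all 12 that drought had raised were undone. AT2G29500 had 40.9, 39.2, 39.2 and 39.8 CPM in RW stress, against 477, 594, 592, 312 and 465 CPM in T2 stress, a log2 fold change of -3.59 ± 0.216 (SE, adjusted p = 1.21e-06). The 4 RW stress libraries, A40s included, were nearly equal and just above RW control (22.8 to 38.4 CPM). These genes also fell in the controls, in 6 of 9 tested, and beyond the controls in 10 of 13 by the interaction test.

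Genes of chlorophyll breakdown and leaf senescence fell in 9 of 12 tested members and rose in none (median -2.66), and all 8 that drought had raised were undone. NYE1 (AT4G22920), which takes magnesium out of chlorophyll, had 3.31, 3.29, 7.42 and 3.23 CPM in RW stress, against 138, 247, 199, 121 and 136 CPM in T2 stress, and a STAY-GREEN-like gene (AT4G11910) had 1.04, 1.39, 0.645 and 1.11 CPM in RW stress, against 159, 118, 162, 148 and 140.3 CPM in T2 stress. The log2 fold changes were -5.25 ± 0.381 and -7.11 ± 0.258 (SE). NYC1 (AT4G13250), of chlorophyll b breakdown, changed less (-1.12). Its RW stress libraries, at 192 to 244 CPM, overlapped RW control at 49.7 to 394 CPM, which itself was above T2 control for the most part (8.52 to 68.4 CPM). AT5G45890, of the same list, showed a wide spread at T2, with 1.12, 0.78, 2.11 and 0.799 CPM in RW stress, against 608, 416, 227, 53.1 and 617 CPM in T2 stress.

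The NAC transcription factors linked to drought and senescence fell in 5 of 10 members (3 with near-identical libraries summed) and rose in none (median -1.80), beside 15.7% and 17.8% over all genes tested. A40s stood apart in this list, above the other 3 RW stress libraries by a median of 2.0 log2 units, and in 5 of the 10 genes by over 4-fold. AT1G69490 had 6.74, 7.46, 56.1 and 6.09 CPM in RW stress, against 116, 209, 195, 127 and 121 CPM in T2 stress, while RW control spanned 1.68 to 143 CPM, with the lowest value in A6c. With near-identical libraries summed its log2 fold change of -2.97 became -2.35 and was no longer called (adjusted p = 0.0695). AT4G27410 remained called at -3.68 after summing. Against RW control none of the 10 genes was called. Without A40s, which leaves only the near-identical RW stress libraries, 3 were called lower, AT4G27410 among them (-2.47 on the log2 scale).

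Photosynthesis genes rose together. Of 25 light-harvesting and photosystem genes 18 rose and none fell (median 1.24), of 14 Calvin-Benson genes 7 rose (median 1.04) and of 14 photorespiratory genes 8 rose (median 1.23). Of those that drought had lowered, 17 of 20, 7 of 11 and 7 of 8 were undone, and with near-identical libraries summed 10, 5 and 6 were undone and as many rose. None of them was called against RW control, where the medians were -0.29, -0.05 and -0.25.

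Among them, AT1G29930 of the light-harvesting list had 10610, 9597, 6731 and 9529 CPM in RW stress, against 590.1, 1137, 663, 1036 and 616 CPM in T2 stress. A small subunit of Rubisco (AT5G38410), the CO2-fixing enzyme, had 11890, 10230, 5736 and 10220 CPM in RW stress, against 1388, 1493, 1271, 1202 and 1409 CPM in T2 stress, with A40s the lowest of the RW libraries. The H protein of glycine decarboxylase (AT1G32470), which releases the photorespiratory CO2, had 1313, 1202, 1212 and 1215 CPM in RW stress, against 239, 459.5, 263, 237 and 221 CPM in T2 stress. The log2 fold changes of the 3 genes were 3.52, 2.84 and 2.15, with adjusted p from 4.88e-06 to 3.56e-05. Aminomethyltransferase (AT1G11860) and serine hydroxymethyltransferase (AT4G37930) of the same pathway rose by 2.12 and 1.44, without overlap between the groups.

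The carbonic anhydrase beta CA1 (AT3G01500), a mesophyll marker here, changed far more than these. It had 3423, 3437, 1904 and 3529 CPM in RW stress, against 47.5, 32.3, 122, 17.6 and 48.3 CPM in T2 stress, a log2 fold change of 5.87 ± 0.552 (SE, adjusted p = 1.61e-05), and its RW control was at 1572 to 3523 CPM. PORB (AT4G27440), of chlorophyll synthesis, was named after its values were seen. It had 1100, 1026, 397 and 1034 CPM in RW stress, against 28, 35.2, 28, 55 and 26.8 CPM in T2 stress, and its log2 fold change was 4.71 ± 0.356 (SE, adjusted p = 4.28e-06). All 4 RW stress libraries lay above RW control (208 to 379 CPM), but A40s by little, and the difference was not called (1.45, adjusted p = 0.0752).

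Starch-breakdown genes rose in 11 of 16 members and fell in 1 (median 2.14), and 10 of the 11 that drought had changed were undone. PHS1 (AT3G29320), a chloroplast glucan phosphorylase, had 357, 375, 194 and 389 CPM in RW stress, against 17.7, 21.9, 17.4, 23.7 and 23.1 CPM in T2 stress, a log2 fold change of 4.01 ± 0.229 (SE, adjusted p = 9.04e-07). PHS2 (AT3G46970) and DPE2 (AT2G40840), which act on glucans and maltose in the cytosol, rose by 4.16 and 2.63. Part of this was shared with watered plants, since 5 of the 16 genes rose in RW control against T2 control, and 5 rose beyond the controls in the interaction test (2 with near-identical libraries summed). RW control itself was uneven, with 1494, 74, 156, 292 and 244 CPM of PHS1 in A6c, A8c, A10c, A13c and A17c.

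**Figure D4:**
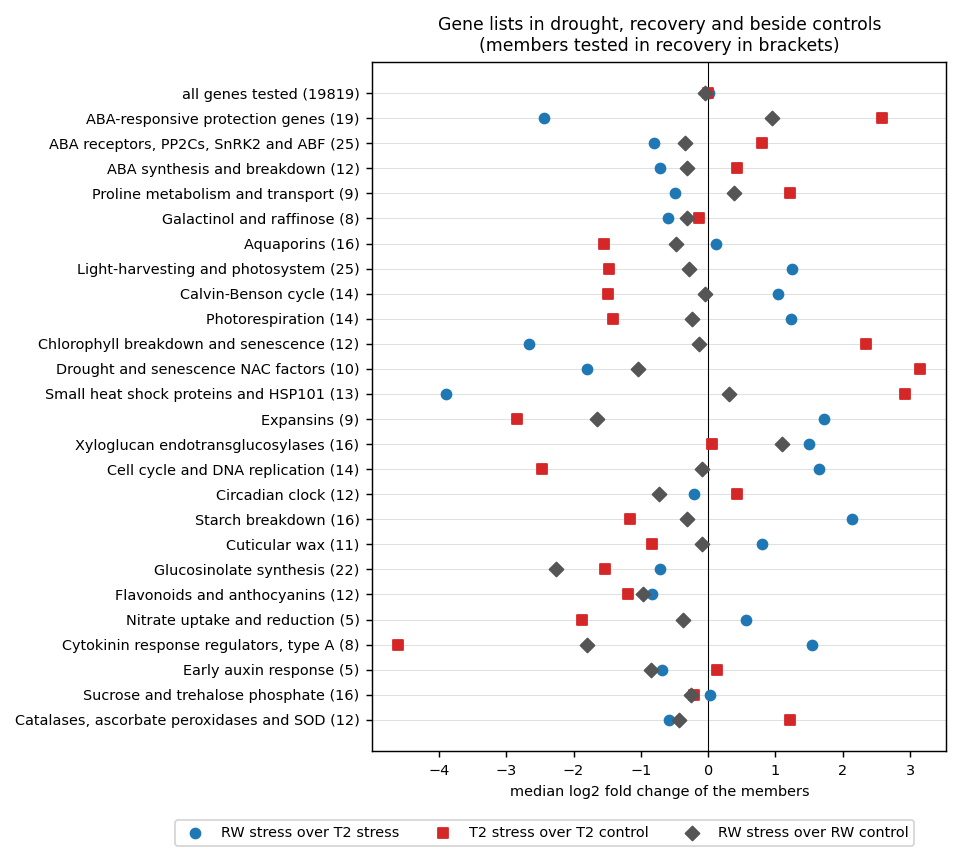
Median log2 fold change of each gene list in RW stress over T2 stress (circles), T2 stress over T2 control (squares) and RW stress over RW control (diamonds), with the number of members tested in recovery in brackets. Circles and squares lie on opposite sides of 0 for most lists (-3.90 and 2.92 for small heat shock proteins), whereas glucosinolate, flavonoid and galactinol genes lie below 0 in all 3, although without A6c the diamonds of glucosinolate and flavonoid genes lie above 0 (0.40 and 0.39).

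Growth-related lists rose from low levels at T2. Of the cell cycle and DNA replication genes 10 of 14 rose and none fell (median 1.64), and 10 of the 11 lowered by drought were undone. AT1G44900 had 7.26, 8.24, 4.14 and 8.92 CPM in RW stress, against 0.783, 0.664, 0.758, 0.326 and 0.773 CPM in T2 stress, and RNR1 (AT2G21790), a subunit of the enzyme that makes deoxyribonucleotides, had 19.9, 19.4, 14.9 and 21.1 CPM in RW stress, against 5.15, 3.11, 4.34, 6.09 and 4.34 CPM in T2 stress. TSO2 (AT3G27060), the small subunit, rose by 1.37 to 15.6 to 26.4 CPM in RW stress. That is below the 124 to 217 CPM of T2 control, but RW control had fallen as well, to 17 to 61.2 CPM.

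Genes of xyloglucan endotransglucosylases, which cut and rejoin the tethers of the cell wall, rose in 8 of 16 members and fell in 3, and 9 of the 10 that drought had changed were undone. AT4G03210 had 685, 648, 66.2 and 624 CPM in RW stress, against 2.35, 5.31, 6.48, 4.14 and 3.18 CPM in T2 stress, and AT3G23730 had 132, 127, 3.43 and 125 CPM in RW stress, against 0.0412, 1.45, 0.379, 0.489 and 0.119 CPM in T2 stress. In both genes, and in AT4G30270 with 634, 624, 57.2 and 617 CPM, A30s, A38s and A42s were far above A40s. They also exceeded all RW controls, which reached 195 CPM, 20.2 CPM and 158 CPM, while A40s lay within the range of RW control. None of the 16 was called against RW control (median 1.09), and 6 of 17 were called higher without A40s.

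Expansins, which loosen cell walls, rose in 5 of 9 members and fell in 1, beside 17.8% and 15.7% over all genes tested. Of the 6 expansins that drought had lowered 5 were undone and 1 was kept. Their median against RW control was -1.65, with 1 gene called and none with near-identical libraries summed, and -1.50 with 3 called without A6c. AT1G69530 had 104, 101, 165 and 99.9 CPM in RW stress, against 25.7, 22.1, 33.5, 19.1 and 26.2 CPM in T2 stress, and all 4 rewatered libraries were below the 186 to 870.2 CPM of RW control, a difference of -1.99 on the log2 scale that missed the threshold (adjusted p = 0.0713). AT2G28950 rose by 4.28 and overlapped RW control (48.9 to 70 CPM in RW stress and 31.8 to 98 CPM in RW control).

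The type-A response regulators, early targets and brakes of cytokinin signalling, were the list lowered most by drought (median -4.60). On rewatering 7 of 8 rose (4 with near-identical libraries summed) and none fell, and 5 of the 7 that drought had lowered were undone while 2 were kept. AT1G10470 had 24.7, 25.4, 30.6 and 23.1 CPM in RW stress, against 8.9, 14.2, 12.7, 8.35 and 8.11 CPM in T2 stress, and thus rose without overlap by 1.34 ± 0.205 (SE). It remained below RW control in every library (140.2, 115, 53.7, 131 and 119.7 CPM, a log2 fold change of -2.11 ± 0.266, adjusted p = 0.022). AT1G59940 showed the same at lower counts (-2.40 against RW control), and AT1G19050, at 6.38 to 11.2 CPM in RW stress, against 13.1 to 22.6 CPM in RW control, was also below every RW control but was not called (-0.88, adjusted p = 0.103). The median against RW control was -1.80 for the list, with 2 of 8 called and none with near-identical libraries summed, and -1.88 with 5 of 8 called without A6c. IPT3 (AT3G63110), an enzyme of cytokinin synthesis named after its values were seen, had 2.83, 2.17, 2.66 and 2.98 CPM in RW stress, against 0.412, 0, 0.31, 0.456 and 0.0297 CPM in T2 stress.

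Aquaporins, the water channels of the vacuolar and plasma membranes, did not move as one. Drought had lowered 11 of 17 and raised 2, and on rewatering 3 of 16 rose and 6 fell. Among all genes tested 17.8% rose and 15.7% fell, so the share of aquaporins that rose was near that of all genes. Of the 13 that drought had changed 5 were undone, beside 72.7% of all drought genes, and 2 changed further in the same direction. AT3G16240 had 477, 437, 85.9 and 417 CPM in RW stress, against 4.78, 14, 11.7, 4.53 and 2.88 CPM in T2 stress, and AT3G26520 had 797, 747, 369 and 748 CPM in RW stress, against 60.7, 80.5, 91, 47.2 and 55.9 CPM in T2 stress. AT3G53420 went on falling, with 65, 53.7, 106 and 51.5 CPM in RW stress, 155, 199, 156, 163 and 150.0 CPM in T2 stress, 69 to 361 CPM in RW control and 359.6 to 1193 CPM in T2 control. AT2G37180 fell in both steps too, and for each of the pair the second fall was lost after summing near-identical libraries (adjusted p = 0.0548 and 0.114).

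Of 12 antioxidant genes (catalases, ascorbate peroxidases and superoxide dismutases) 4 fell and 1 rose. Over all genes tested 15.7% fell and 17.8% rose. CSD1 (AT1G08830), a copper/zinc superoxide dismutase, had 108, 102, 91.1 and 109 CPM in RW stress, against 217, 933, 382, 841 and 219.6 CPM in T2 stress, and AT1G07890 fell to 145 to 168 CPM in RW stress, against 1243 to 2529 CPM in T2 stress. AT1G20620 rose by 2.64, with 10630 to 12240 CPM in RW stress and 1203 to 2625 CPM in T2 stress, but its controls rose by 2.21, and the interaction of 0.41 was not called. Alternative oxidase 1D (AT1G32350), a bypass of the mitochondrial respiratory chain named after its values were seen, fell to 0.41, 0.26, 8.12 and 0.369 CPM in RW stress, against 54.4, 68.4, 73.8, 38.9 and 54.3 CPM in T2 stress.

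Clock genes changed between the sampling points in droughted plants and in watered plants. Drought changed 3 of 12, and 4 rose and 5 fell between T2 and RW in droughted plants, and in watered controls 5 rose and 3 fell. AT5G61380 had 55.3, 57.2, 161 and 59 CPM in RW stress, against 0.495, 0.788, 1.41, 0.521 and 0.802 CPM in T2 stress, and 147, 236, 319, 207 and 85.5 CPM in RW control, against 1.41, 0.535, 0.725, 3.08 and 0.761 CPM in T2 control. Its interaction was -0.55 and was not called. Over the list, the interaction test called 4 of 13 genes lower and none higher, and 1 with near-identical libraries summed. The hour at which leaves were taken at RW is not given in the sources used here, and its part in these changes was not tested.

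Glucosinolate genes, which make the sulfur-rich defence compounds of the family, did not rise on rewatering. Drought had lowered 11 of 22 and raised 1, and on rewatering none rose and 9 fell, so that 1 of 12 was undone. Only 4 fell with near-identical libraries summed, and the interaction test called none of 22 (5601 over all genes). SOT17 (AT1G18590), a sulfotransferase of the last core step, had 2.01, 1.69, 2.43 and 1.81 CPM in RW stress, against 4.87, 7.3, 8.14, 5.9 and 5.53 CPM in T2 stress. CYP83B1 (AT4G31500), of the indolic branch, had 2.61, 2.34, 15.2 and 2.15 CPM in RW stress, against 21.2, 47, 21.7, 46 and 20.8 CPM in T2 stress, and its call was lost after summing (adjusted p = 0.109). Against RW control the list had a median of -2.27 with none of 21 called, and 0.40 with 1 called higher without A6c. SOT17 stood at 278, 1.39, 0.771, 1.43 and 2.72 CPM in A6c, A8c, A10c, A13c and A17c, so that the rewatered plants were level with 4 of the 5 controls.

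The remaining lists were small or held mixed calls, beside 17.8% higher and 15.7% lower over all genes tested. Cuticular wax genes rose in 4 and fell in 2 of 11, flavonoid genes rose in 2 and fell in 4 of 12 (none rose and 2 fell of 14 with near-identical libraries summed), and genes of sucrose and trehalose phosphate rose in 4 and fell in 2 of 16. TPS8 (AT1G70290), of the trehalose phosphate synthase family, had 118, 132, 118 and 129.7 CPM in RW stress, against 18.1, 21.3, 24.3, 34.3 and 18 CPM in T2 stress. Of 5 nitrate genes, 4 lowered by drought, 1 rose on rewatering and none was undone. Early auxin genes rose in 1 and fell in 2 of 5, and none was called with near-identical libraries summed.

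Genes called as passing beyond the controls were few with the libraries as deposited, but their count depended on single libraries and on the test. It was 233 without A40s, 106 without A6c and 179 with DESeq2, so how many genes overshot is not settled. By the definition of a recovery call against the drought change together with a call against RW control on the far side, 7 of the 5525 drought genes overshot (0.127%), 5 of them lowered and 2 raised by drought, and none with near-identical libraries summed. AT5G43270 had 30.5, 31.9, 10.8 and 30.9 CPM in RW stress, against 2.8, 3.61, 2.76, 4.3 and 2.08 CPM in T2 stress, 7.2, 5.38, 6.87, 6.47 and 6.03 CPM in RW control and 5.06, 6, 9.83, 5.34 and 5.39 CPM in T2 control. Every rewatered library was above all others, A40s only just, and the log2 fold change against RW control was 2.02 ± 0.292 (SE, adjusted p = 0.031). AT3G01080 had 46.1, 44.1, 32.4 and 48.7 CPM in RW stress, against 2.39, 1.49, 1.69, 3.39 and 2.23 CPM in T2 stress, 14.1, 15.7, 19.7, 9.57 and 16.7 CPM in RW control and 10.3, 11.5, 8.99, 13.5 and 8.75 CPM in T2 control, so every rewatered library was above all controls, with A40s the lowest of them.

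AT1G61800 held the largest difference, 3.41 ± 0.255 (SE, adjusted p = 0.000996) against RW control. It had 45.2, 47, 30.9 and 47.4 CPM in RW stress and 4.61, 5.96, 3.23, 2.95 and 3.27 CPM in RW control, but 46.7, 32.9, 20.1, 46.6 and 26.1 CPM in T2 control, so the rewatered plants were at the level of the T2 controls and the RW controls had fallen (-3.10). AT2G40460 (2.23) was above both control groups. On the low side, AT5G43630 had 7.04, 7.98, 8.17 and 9.22 CPM in RW stress, against 61, 83.4, 114, 86.2 and 66.1 CPM in T2 stress, 40.1, 27.2, 31.2, 16.4 and 46.4 CPM in RW control and 33.6, 22.2, 56.5, 34.1 and 35.8 CPM in T2 control. AT1G78610 likewise fell to 4.16 to 6.97 CPM in RW stress, against 35.9 to 55.4 CPM in T2 stress and 12.8 to 18.4 CPM in RW control. The remaining one, AT1G68740, averaged under 5 CPM over the 9 droughted libraries.

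Changes kept after rewatering were seen in 16 genes, 8 of them partly undone, and in none with near-identical libraries summed. The count was 154 without A40s, 125 without A6c and 229 with DESeq2. AT1G49500 had 6.48, 6.37, 12 and 5.07 CPM in RW stress, against 21, 23.1, 10.1, 24.7 and 17.7 CPM in T2 stress, 77.7, 134, 114, 71.9 and 108 CPM in RW control and 105, 86.6, 57.7, 23.1 and 84.8 CPM in T2 control. Its further fall after rewatering (-1.34) was not called with near-identical libraries summed (-1.09, adjusted p = 0.13) and A40s overlapped T2 stress, and its difference from RW control was -3.76 ± 0.328 on the log2 scale (SE, adjusted p = 0.00275). The expansin AT1G26770 stayed low with 20.9, 20.5, 38.4 and 19.9 CPM in RW stress, against 78.9, 124, 91.8, 190.0 and 141 CPM in RW control. A PEP carboxylase gene (AT2G42600), of an enzyme that fixes bicarbonate, had 123, 127, 169.6 and 119 CPM in RW stress, against 444, 422, 274, 227 and 466 CPM in T2 stress, 435, 639.8, 313, 513 and 563 CPM in RW control and 1057, 661, 827, 731 and 909 CPM in T2 control, and all 4 rewatered libraries were below all others.

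Among genes kept high, AT5G22460 had 47, 48.5, 24.1 and 45.9 CPM in RW stress, against 28.2, 18.2, 32.6, 30.6 and 33.7 CPM in T2 stress and 12.4, 10, 11.4, 13.1 and 10.9 CPM in RW control. AT1G05680 had 92.7, 96.6, 45.9 and 95.2 CPM in RW stress, against 76.3, 19.7, 83.7, 33.8 and 79.5 CPM in T2 stress and 25, 23.5, 32.2, 23.7 and 37.1 CPM in RW control. Their differences from RW control were 1.83 and 1.54 on the log2 scale (adjusted p = 0.0178 and 0.0437). AT4G31330, AT5G59330 and AT2G41380 were partly undone, with 1.22 to 2.9 CPM, 20.2 to 39.2 CPM and 8.24 to 14 CPM in RW stress, against 0.0286 to 0.224 CPM, 3.81 to 8.88 CPM and 2.09 to 5.91 CPM in RW control. AT2G41560 was kept low at 26.9 to 41.5 CPM in RW stress, against 106 to 180.1 CPM in RW control.

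**Figure D5:**
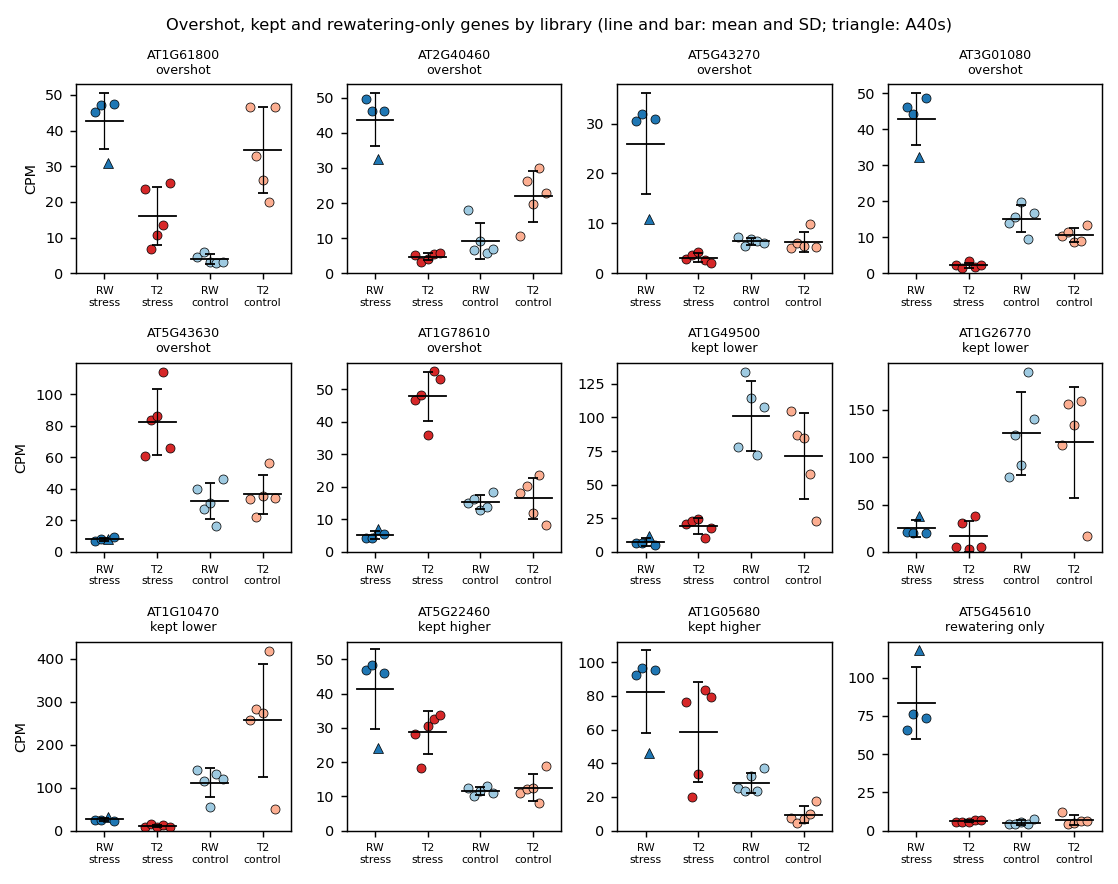
CPM by library for 6 overshot, 5 kept and 1 rewatering-only gene in RW stress, T2 stress, RW control and T2 control, with mean and SD and a triangle for A40s. AT5G45610 is at 65.7 to 118 CPM in RW stress and at 12.3 CPM or less in every other library.

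Without a called drought change, 13 genes stood apart from both T2 stress and RW control after rewatering. Their count was 304 without A40s, 100 without A6c and 203 with DESeq2. Of the 13 genes 11 were higher and 2 lower. Some of them, such as AT3G18217 and AT1G61255, had too few counts to be tested for drought and were taken as not called. With near-identical libraries summed, drought lowered AT1G61255 (-4.18, adjusted p = 0.00518). AT3G55700 was lower under drought and missed the threshold (-1.39, adjusted p = 0.0622). AT5G45610 was the only gene called against RW control with near-identical libraries summed (4.21, adjusted p = 0.0168). It had 65.7, 76.4, 118 and 73.7 CPM in RW stress, against 5.69, 5.39, 7.1, 5.7 and 7.07 CPM in T2 stress, 4.27, 4.17, 5.62, 3.98 and 7.84 CPM in RW control and 12.3, 4.54, 6.49, 5.95 and 5.06 CPM in T2 control. A40s was the highest here. AT3G55700 had 55.5 to 129.8 CPM in RW stress, against 0.783 to 5.18 CPM in T2 stress and 14.2 to 36.5 CPM in RW control, AT5G62680 rose by 1.31 and AT1G29050 by 1.29. AT3G57400 fell to 9.93 to 14.2 CPM in RW stress, against 32.2 to 53.7 CPM in T2 stress and 18.3 to 32.3 CPM in RW control.

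Of the genes with the largest changes outside the lists, AT5G62360 was the most even. It had 598, 593, 569.9 and 673 CPM in RW stress, against 1.03, 1.12, 0.758, 1.04 and 0.951 CPM in T2 stress, a log2 fold change of 9.30 ± 0.189 (SE, adjusted p = 2.47e-09), and RW control was higher than T2 control as well (4.76). AT4G21870 had 284, 286, 220.0 and 273 CPM in RW stress, against 0.866, 0.83, 1.83, 0.75 and 0.535 CPM in T2 stress, and was above RW control (7.33 to 96.6 CPM) in all 4 libraries without being called (adjusted p = 0.0855), and its controls rose by 2.80. AT5G18840, AT2G45180 and AT2G19800 rose by 9.20, 7.88 and 7.79, with A40s at 23.7 CPM, 56.9 CPM and 123 CPM and the other 3 libraries at 344 CPM, 256 CPM and 951 CPM or more. AT5G18840 also rose in the controls (5.78), and its interaction was not called with near-identical libraries summed (2.74, adjusted p = 0.224). AT1G23480 was at 7.89 to 13.7 CPM in RW stress and at 0 to 0.0326 CPM in T2 stress. The size of its log2 fold change (9.365) thus rests on close to no counts in T2 stress.

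Among the largest falls, AT1G80160 had 1.68, 1.82, 0.943 and 1.88 CPM in RW stress, against 311, 684, 465, 275 and 317 CPM in T2 stress, a log2 fold change of -8.0 ± 0.422 (SE, adjusted p = 6.16e-07). AT2G42000 had 0.149, 0.173, 0.0248 and 0.123 CPM in RW stress, against 9.32, 149, 44.2, 50.5 and 7.58 CPM in T2 stress, so the groups were far apart although T2 stress itself spread widely. AT2G23240, AT1G02310, AT3G48850 and AT4G14819 were at 0 to 0.0307 CPM, 0 to 0.149 CPM, 0.0307 to 0.0993 CPM and 0 to 0.123 CPM in RW stress, against 1.93 to 47.8 CPM, 6.32 to 21 CPM, 0.866 to 35.9 CPM and 7.58 to 13.2 CPM in T2 stress, again close to no counts after rewatering.

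A40s was the only library with a profile of its own in RW stress. Over all 19819 genes it differed from the mean of the other 3 by a median of -0.01 log2 units, and was over 4-fold higher in 249 genes and over 4-fold lower in 125. In genes that rose on rewatering it was lower by a median of 0.30, and in genes that fell it was higher by 0.29. These genes were called with A30s, A38s and A42s as 3 of the 4 libraries, so both medians are descriptions. The protection genes, which fell, were lower in A40s. Without A40s 7095 genes were called in recovery, and without A42s 6032.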

How the data were processed

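RNA from leaves of Mav was sequenced, and the reads were aligned for the authors (Nebion AG) with BLAT, in protein space, to a reduced set of TAIR 10 coding sequences, keeping the best-scoring mappings. The authors deposited estimated counts, given as whole numbers without normalization, and TPM values, which the authors scaled to a fixed sum per library. Trimming, versions and the handling of equal mappings are not given in the sources used here, so reads of close paralogs and of overlapping genes may be shared between them, and strand was not stated.

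The estimated counts, already whole when deposited, were analysed in R 4.3.3 with edgeR 4.0.16 (filterByExpr, TMM, glmQLFit and glmQLFTest), each comparison fitted on its own groups, with Benjamini-Hochberg adjustment over all genes tested. A call needed an adjusted p under 0.05 and a log2 fold change beyond 1 in either direction. A drought change was called undone, overshot or kept from the 3 calls of drought, recovery and RW stress against RW control. A gene not tested in one of these comparisons was taken as not called in it. The interaction compared recovery with the change in the controls. For CPM, TMM-scaled library sizes were set to 1000000. Depth per library was between 22346621 and 37783763 counts. The p-values measure the spread between libraries, which the near-identical libraries of RW and T2 stress may make too small, and the summed libraries were fitted as a check. No feature without a gene was counted in the totals.

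Alternatives were RLE scaling, no filter, DESeq2 1.42.0, limma 3.58.1 on log2(TPM + 1) and log2(TPM + 0.1), an adjusted p under 0.01, a test against the fold threshold, 1 fit of the 4 groups, leaving out lane 7 and leaving out each library, and, added after seeing the data, no scaling. The procedure was tested on simulated data. The simulated libraries were independent and drawn with a fixed spread, so this test does not cover the near-identical libraries or the spread of the real ones.

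The comparison and the gene lists (372 identifiers, 68 of them annotated in the study's tables) were chosen with earlier results of these data known, and the study had chosen part of its annotated genes on these libraries, so none of the lists is independent evidence. Named were the 8 largest rises and falls among genes called with and without summing, whose groups did not overlap and whose mean was at least 5 CPM, up to 5 overshot, kept and rewatering-only genes in each direction by the same mean, and up to 6 members of each list. Others are marked as named after their values were seen. Symbols are given only for genes the study's tables pair with an identifier. Other species and sampling points were not used here.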

Additional observations from a re-analysis of the deposited data

Results flagged for a closer look

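Pairs of a named gene and a group of 4 or 5 profiles numbered 290, with near-identical libraries counted once, so RW stress with 2 profiles could not be tested. Of these pairs 35 held a library far from the rest (12.1%). The limits used assume normally spread values and independent genes, so no rate expected by chance can be set beside this share. A6c held 10 of the 35, all as the highest RW control. Against the range of the other 4 RW controls in CPM, it had 278 beside 0.771 to 2.72 for AT1G18590, 104 beside 1.21 to 15.6 for AT4G31500, 1490 beside 74 to 292 for AT3G29320, 639 beside 37.8 to 148 for AT2G40840 and 656 beside 35.5 to 108 for AT1G07890. It also had 18 CPM of AT2G40460, 5.91 of AT2G41380, 4.57 of AT1G07430, 1.41 of AT2G47180 and 1520 of AT3G26520.

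Other RW controls stood apart as follows, in CPM. A10c was high in AT3G30775 (110 beside 15.2 to 27.9), AT5G38710 (5.76), AT2G19800 (488) and AT1G02310 (0.771). A17c was high in AT2G39800 (1070 beside 105 to 322), AT3G55610 (260) and AT3G48850 (2.03), so the RW controls differed among themselves in proline genes. A8c was high in AT5G46180 (110), AT4G37930 (7200) and AT4G30270 (158), and A13c in AT1G44900 (20) and AT2G21790 (42.5).

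At T2 stress, A35s was high in AT2G35300 (166) and AT1G32470 (459) and low in AT5G22460 (18.2), and A37s was high in AT4G21870 (1.83). Among T2 controls, A24c was high in AT3G30775 (10.5), AT1G23480 (7.99) and AT2G19800 (106), A9c in AT5G45610 (12.3) and AT5G06760 (5.83), A16c in AT5G43270 (9.83) and AT2G22240 (966), A22c in AT5G18840 (0.8) and A15c in AT4G37930 (7290). The change from T2 to RW differed between droughted and watered plants in 5601 genes by the interaction test.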

How the results depend on the processing

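Recovery, drought, the interaction and the undone genes kept their counts within 1.5 times under nearly every alternative, whereas the small counts of RW stress against RW control (52 genes) and of the overshot (7), kept (16) and rewatering-only (13) genes did not. With the near-identical libraries summed, recovery held 4133 genes and the interaction 3151, against 6628 and 5601 as deposited, RW stress differed from RW control in 1 gene, and 0 overshot, 0 kept and 1 rewatering-only genes remained in the count. With RLE scaling recovery, drought, RW stress against RW control and undone gave 6641, 5535, 48 and 4026 genes. The test against the fold threshold gave 3917 genes in recovery, 2724 in drought, 4 in RW stress against RW control, and 1977 undone, 0 overshot, 1 kept and 1 rewatering-only.

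For RW stress against RW control, overshot, kept and rewatering-only genes, the counts were 896, 179, 229 and 203 with DESeq2, 229, 45, 48 and 65 with limma on log2(TPM + 1), 259, 53, 50 and 67 with limma on log2(TPM + 0.1), 224, 57, 51 and 56 in 1 fit of the 4 groups, 4, 0, 1 and 2 at an adjusted p under 0.01, and 4, 0, 2 and 2 without lane 7. DESeq2 gave 2333 genes in the controls' change, against 1417, and no filter gave 7 rewatering-only genes. Without scaling, chosen after seeing the data, these 4 counts were 217, 39, 45 and 65. That setting moved the median of all genes to 0.13 (log2) in RW stress against RW control and to -0.11 in the controls' change, and the called genes were then 191 higher and 26 lower (88% higher, against 65.4%) and 602 higher and 844 lower (41.6%, against 55.5%). The causes of these differences were not tested.

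Leaving out 1 library gave 6032 (without A42s) to 7095 (without A40s) genes in recovery, 5090 to 5641 in drought, 4 (without A30s) to 939 (without A40s) in RW stress against RW control, 789 (without A10c) to 2435 (without A6c) in the controls' change, 4858 to 6070 in the interaction, 3745 to 4089 undone, 1 to 233 overshot, 1 to 154 kept and 1 to 304 rewatering-only, the highest of the last 3 without A40s. Over 1980 pairs of a named result and an alternative, covering 99 results (each a gene in a comparison), 167 were no longer past the threshold and 0 changed direction. Many of these genes were named for large changes called with and without summing, so few changes of direction could arise. Of the list members, 164 were called in recovery with libraries summed, against 212. No paired analysis was possible because the Mav groups share no plant number.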
